A study of Mus musculus with 2 samples.

Results

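The 8 microRNA genes described here are those known as microRNAs of epithelial cells, namely Mir200a, Mir200b, Mir200c, Mir141 and Mir429 of the miR-200 family, together with Mir205, Mir203 and Mir31. They were chosen by gene name in the GENCODE M21 annotation, and all 8 were found among the 2202 microRNA genes counted. The samples were heart tissue of male B6CASTF1/J mice at 10 days of age. These mice are the hybrid offspring of the C57BL/6J strain and the wild-derived CAST strain. The series holds 1 group of 2 libraries, biological replicates 1 and 2, made from total RNA with a size limit on the fragments. The labels number the males separately and give each heart its own biosample identifier beside a donor identifier that both share. No treatment, transgene or other genotype was named, so the only comparison the design allows is between replicate 1 and replicate 2, and no p-value below concerns a condition.

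A microRNA is cut from a hairpin in a longer transcript and guides the silencing of messenger RNAs that pair with its seed, bases 2 to 8 from its 5′ end. The miR-200 family and miR-205 keep epithelial cells in their state by silencing the transcription factors Zeb1 and Zeb2, which in turn repress the miR-200 genes, and this loop is a textbook switch between epithelial and mesenchymal cells. In skin, miR-203 restrains the stem cell factor p63 as keratinocytes differentiate, and miR-31 is abundant in keratinocytes and hair follicles. Heart muscle itself is not an epithelium, and the heart also holds vessels, connective tissue, blood and an outer mesothelial layer, the epicardium. In RNA from a tissue of mixed cells, fewer cells of a type and less RNA per cell cannot be told apart.

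The mature sequences are shown because the miR-200 family divides by its seed, and the results for the family follow from which hairpin a read matches. They are from RefSeq (GRCm38.p6), run 5′ to 3′, and carry the seed in capitals. For each hairpin the arm generally known as the active one is given. The counts are per hairpin and do not separate the arms.
miR-200b-3p: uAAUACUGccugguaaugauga
miR-200c-3p: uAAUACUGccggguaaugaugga
miR-429-3p: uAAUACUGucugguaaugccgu
miR-200a-3p: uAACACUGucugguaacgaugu
miR-141-3p: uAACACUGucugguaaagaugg
miR-205-5p: uCCUUCAUuccaccggagucug
miR-203-3p: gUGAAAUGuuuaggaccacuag
miR-31-5p: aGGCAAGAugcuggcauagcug

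miR-200b, miR-200c and miR-429 share the seed AAUACUG, and miR-200a and miR-141 share AACACUG. Counting from 1 at the 5′ end of miR-200b-3p, the seeds differ by U4C. Among the 1738 mature microRNAs of the RefSeq table these seeds belong to no gene outside the family, and the seeds of miR-205-5p, miR-203-3p and miR-31-5p occur once each. Outside the seed the family is alike as well. miR-200c-3p differs from miR-200b-3p by U11G and A22G over the 22 positions compared, and miR-141-3p differs from miR-200a-3p by C17A and U22G. None of the 8 hairpins shares a stretch of 20 bases with another of the 2202 counted hairpins, whereas 94 of the 340 genes called detected below do. The mature forms of both arms are 21 to 23 bases long, so levels of different genes are compared below without division by length. These are levels of reads. Whether reads of different microRNAs stand for equal numbers of molecules was not tested.

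The family comes from 2 places in the genome (mm10, all on the minus strand). Mir200b (chromosome 4, 156055681 to 156055750), Mir200a (chromosome 4, 156054896 to 156054985) and Mir429 (chromosome 4, 156053905 to 156053987) lie within 1846 bases. All 3 are in an intron of Ttll10, and Mir429 also overlaps an exon of the noncoding gene Gm13648. Mir200c (chromosome 6, 124718322 to 124718390) and Mir141 (chromosome 6, 124717914 to 124717985) are 336 bases apart in an intron of the noncoding gene Gm15884, and Mir141 also overlaps an exon of Gm29008, a transcript with no assigned function. Ptpn6 lies upstream of this pair, and Phb2, Emg1 and the small nucleolar RNA gene Gm23547 lie downstream, all within 10 kb. Mir205 (chromosome 1, 193507463 to 193507530, minus strand) lies in an exon of the long noncoding RNA gene 4631405K08Rik. Mir31 (chromosome 4, 88910557 to 88910662, minus strand) lies in an exon of a long noncoding RNA gene on the same strand. Mir203 (chromosome 12, 112130880 to 112130955, plus strand) overlaps no other gene of GENCODE M21, in which the nearest is Aspg at 3321 bases.

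Replicate 1 held 3748432 counts on microRNA genes, against 6305782 in replicate 2. Levels are given as CPM (counts per 1000000 counts on microRNA genes), in which 3 counts, the limit that a count of 0 allows, equal 0.8003 CPM in replicate 1 against 0.476 CPM in replicate 2. Reads that mapped to several places entered no gene count, and they made up 36.8% of replicate 1 against 48.1% of replicate 2. The 340 genes that reached 10 counts in each library are called detected. Cardiac muscle genes were present, with 3795 CPM in replicate 1 against 1362 CPM in replicate 2 for Mir208a and 3678 and 7542 CPM for Mir499. Intervals reflect the counting error of reads alone. Reads copied by PCR are not separate molecules, so the intervals may be too narrow for molecules. SDs are over the 2 replicates (n = 2), and the spread between them may be technical as well as biological.

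All 8 epithelial microRNA genes were detected. Together they took 0.0929% of the counts in replicate 1 (exact 95% interval 0.0899% to 0.0961%) against 0.0727% in replicate 2 (0.0706% to 0.0749%). Their mean levels ran from 5.23 to 423 CPM with a median of 27.7 CPM, against a median of 80.03 CPM over all 340 detected genes. Mir200c stood out, and Mir31 was close to it in replicate 1 alone.

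**Figure D1:**
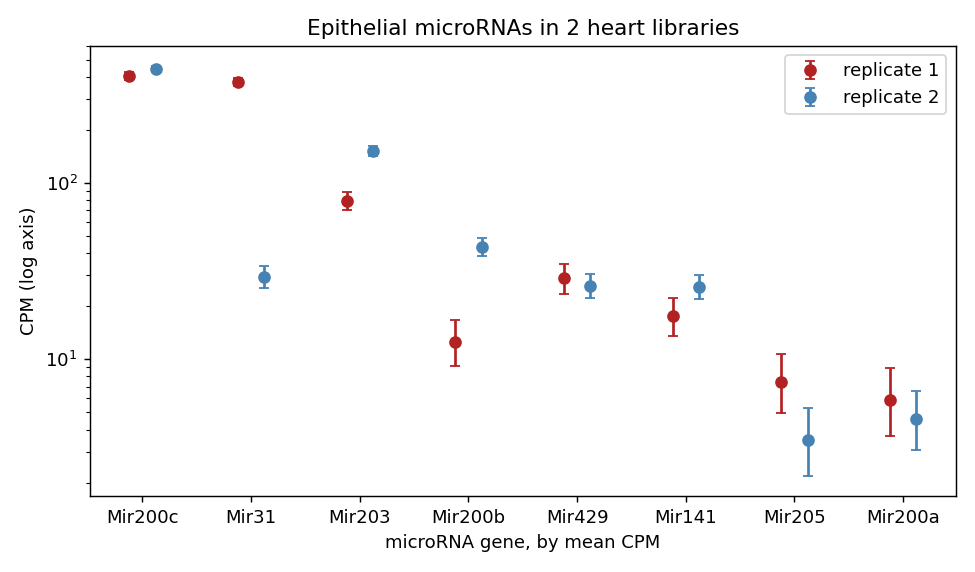
Level of each epithelial microRNA gene (CPM, log axis) in replicate 1 (red) and replicate 2 (blue), ordered by mean CPM, with bars for the exact 95% Poisson interval of the count. Mir200c has 403 CPM in replicate 1 against 443 CPM in replicate 2, Mir31 has 375 CPM in replicate 1 against 29.3 CPM in replicate 2, and Mir205 and Mir200a lie below 10 CPM.

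Mir200c had 1512 counts in replicate 1 against 2791 in replicate 2, or 403 and 443 CPM. It ranked 98 of 2202 genes in replicate 1 against 90 in replicate 2, and it was the most abundant of the 8 genes in each library. Its mean of 423 ± 27.7 CPM had a coefficient of variation of 6.56%, the lowest of the 8 genes by CPM. With the TMM scaling of library sizes used below, Mir429 and Mir200a differed less between the libraries. Their log2 ratios were -0.0012 and 0.22, against -0.28 for Mir200c. Mir141, its neighbour in the cluster, had 66 counts in replicate 1 against 162 in replicate 2, or 17.6 and 25.7 CPM. Both libraries therefore held far fewer counts of Mir141 than of Mir200c, with no overlap between the values of the 2 genes.

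The chromosome 4 hairpins were lower. Mir200b had 47 counts (12.5 CPM) in replicate 1 against 274 counts (43.5 CPM) in replicate 2. Mir429 had 108 counts (28.8 CPM) in replicate 1 against 165 (26.2 CPM) in replicate 2. Mir200a, which lies between them, had 22 counts (5.87 CPM) in replicate 1 against 29 (4.60 CPM) in replicate 2. Mir429 exceeded Mir200b in replicate 1 and Mir200b exceeded Mir429 in replicate 2. The order of these hairpins was thus not the same in the libraries, whereas Mir200a was the lowest of the cluster in each.

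Of the genes outside the family, Mir203 had 296 counts (79.0 CPM) in replicate 1 against 958 counts (152 CPM) in replicate 2. Mir31 had 1405 counts (375 CPM) in replicate 1 against 185 counts (29.3 CPM) in replicate 2. Its rank was 101 in replicate 1 against 205 in replicate 2. Mir205, a microRNA of stratified and glandular epithelia, had 28 counts (7.47 CPM) in replicate 1 against 22 (3.49 CPM) in replicate 2. At these counts the exact 95% interval of Mir205 ran from 4.96 to 10.8 CPM in replicate 1 and from 2.19 to 5.28 CPM in replicate 2.

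By mean CPM the order was Mir200c, Mir31, Mir203, Mir200b, Mir429, Mir141, Mir205 and Mir200a. The replicate values of Mir200c and Mir31 did not overlap, nor did those of Mir203 and Mir200b or those of Mir141 and Mir205. Those of Mir429 and Mir141 did not overlap either, but in replicate 2 they were nearly equal, at 165 and 162 counts. Their levels there were 26.2 CPM (exact Poisson interval 22.3 to 30.5) and 25.7 CPM (21.9 to 30.0). The order of Mir429 and Mir141 in replicate 2 was thus not beyond counting error. The neighbours Mir31 and Mir203, Mir200b and Mir429, and Mir205 and Mir200a overlapped and had no order beyond the spread between the replicates. Within replicate 1 alone the order after Mir200c was Mir31, Mir203, Mir429, Mir141, Mir200b, Mir205 and Mir200a. Within replicate 2 it was Mir203, Mir200b, Mir31, Mir429, Mir141, Mir200a and Mir205.

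Between the hearts, Mir31 was higher in replicate 1 and Mir200b and Mir203 were lower in it, each by more than 2-fold, while the rest of the group differed less. For each detected gene, the split of its counts between the libraries was compared with the split given by library sizes after TMM scaling. The test was two-sided, exact and binomial, with Benjamini-Hochberg adjustment over the 340 genes and calls at 0.05. This test compares 2 libraries against counting error and says nothing of the spread among hearts. Of the 8 genes, 2 were called higher in replicate 1 (Mir31 and Mir205), 4 were called lower in it (Mir200c, Mir203, Mir200b and Mir141), and 2 did not pass (Mir429 and Mir200a). Over all detected genes 72.1% were called, 37.9% as higher and 34.1% as lower in replicate 1, so 6 of 8 is near the share of the whole table. With the further demand of a 2-fold difference, 3 of the 8 genes were called against 19.7% of all detected genes. With total counts as the scaling, the log2 ratio of Mir203 was -0.94, under 2-fold, and that of Mir205 was 1.09, over 2-fold. The median log2 ratio of replicate 1 over replicate 2 was -0.14 for the 8 genes and 0.05 for all 340, and the SD of the log2 ratios was 1.64 and 0.92. The SD of the 8 genes includes the log2 ratio of Mir31, 3.53, and does not describe the spread of the rest.

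Mir31 was 11.5-fold higher in replicate 1, with a log2 ratio of 3.53 (exact 95% interval 3.31 to 3.76). No other of the 340 genes had a larger ratio in that direction. Mir543, the next after Mir31, had a log2 ratio of 2.79. The total of the 8 genes turned on it. It made up 40.3% of their counts in replicate 1 (exact 95% interval 38.7% to 42.0%) against 4.03% in replicate 2 (3.48% to 4.64%). Without Mir31 the other 7 genes summed to 555 CPM in replicate 1 against 698 CPM in replicate 2, the reverse of the order with it, 929 and 727 CPM.

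Mir200b was 3.79-fold lower in replicate 1 (log2 ratio -1.92, interval -2.41 to -1.48), and Mir203 was 2.12-fold lower (log2 ratio -1.08, interval -1.28 to -0.90). Their adjusted p-values by the exact binomial test were 7.33e-22 and 1.57e-32. Mir200b ranked 17 of 340 genes by the size of its ratio and Mir203 ranked 62. Mir141 was lower in replicate 1 by a log2 ratio of -0.68 (interval -1.12 to -0.27, exact binomial adjusted p = 0.00148). Mir200c had a small but well-counted difference of -0.28 (interval -0.37 to -0.19, exact binomial adjusted p = 3.64e-09), which was smaller than the median absolute log2 ratio of 0.54 over all detected genes.

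Mir205 had a log2 ratio of 0.95 (interval 0.10 to 1.83) with an exact binomial adjusted p of 0.0298. That call rested on 28 and 22 counts and was lost with DESeq2 size factors (adjusted p = 0.0605), within a range of 0.0121 to 0.0605 over the alternatives tried. Mir429 had a log2 ratio of 0.00 (interval -0.37 to 0.36) and Mir200a one of 0.22 (interval -0.66 to 1.06), and neither passed the exact binomial test (adjusted p = 1 and 0.71). Neither p shows that these genes were alike in the hearts.

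**Figure D2:**
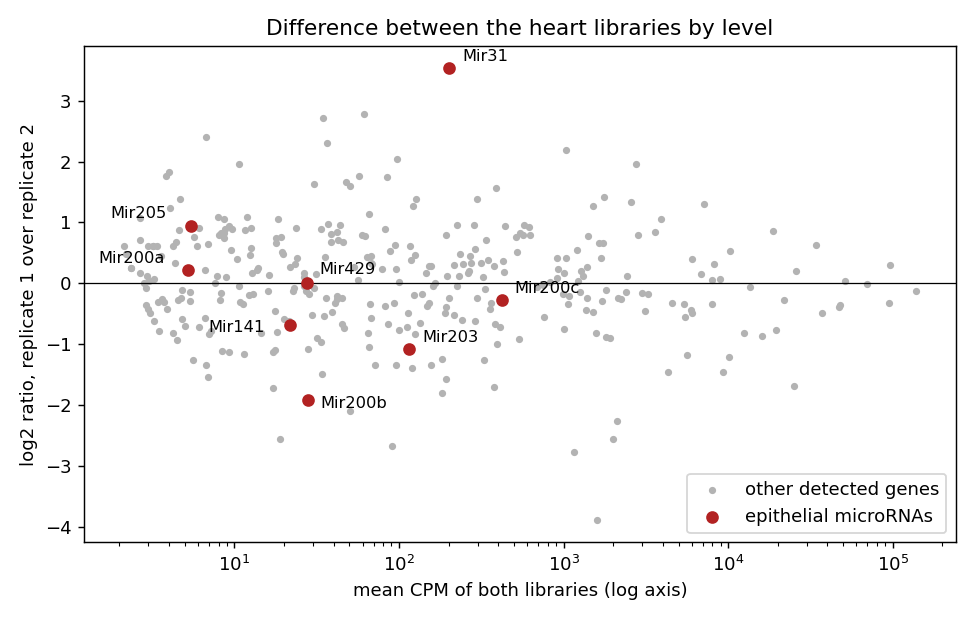
Log2 ratio of replicate 1 over replicate 2 after TMM scaling (vertical axis) against mean CPM (log axis) for the 340 detected genes, each point a gene, with the 8 epithelial microRNA genes in red and the other detected genes in grey. Mir31 at 3.53 is the highest point of the plot, Mir200b lies at -1.92, and Mir200c, Mir429 and Mir200a lie near 0.

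Ratios within the miR-200 family do not depend on the scaling of the libraries. By them, the chromosome 4 hairpins did not keep the same proportions in the 2 libraries. Pairs of other genes were not tested, and 72.1% of all detected genes were called between the libraries. A change of proportion is thus not shown to be particular to this cluster. For 6 pairs the shares were compared between the libraries with a two-sided Fisher's exact test, adjusted over the 6 pairs. This test too compares libraries against counting error and says nothing of the spread among hearts. Of the counts of Mir200b and Mir429 together, Mir200b took 30.3% in replicate 1 (exact 95% interval 23.2% to 38.2%) against 62.4% in replicate 2 (57.7% to 66.96%), with an adjusted p of 4.41e-11. Of the counts of Mir200b and Mir200a it took 68.1% in replicate 1 (55.8% to 78.8%) against 90.4% in replicate 2 (86.5% to 93.5%), with an adjusted p of 2.62e-05. The proportion of Mir200a to Mir429 did not pass the test. Mir200a took 16.9% of that pair in replicate 1 (10.9% to 24.5%) against 14.9% in replicate 2 (10.2% to 20.8%), with an adjusted p of 0.64 by Fisher's exact test. The odds ratio of replicate 1 over replicate 2 for that pair was 1.16 with a 95% interval of 0.60 to 2.21, which is too wide to show that the pair kept its proportion. Mir200b was thus the hairpin of the cluster whose proportion to each of its neighbours differed.

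On chromosome 6, Mir200c took 95.8% of the counts it shares with Mir141 in replicate 1 (exact 95% interval 94.7% to 96.8%) against 94.5% in replicate 2 (93.6% to 95.3%). The difference did not pass Fisher's exact test (adjusted p = 0.0951), and the odds ratio of replicate 1 over replicate 2 was 1.33 with a 95% interval of 0.99 to 1.81. Mir200c exceeded Mir141 by 22.9 to 1 in replicate 1 and by 17.2 to 1 in replicate 2.

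The chromosome 6 pair held most of the family. It took 89.9% of the family's counts in replicate 1 (exact 95% interval 88.4% to 91.3%) against 86.3% in replicate 2 (85.1% to 87.5%), and this difference of 3.59 percentage points passed Fisher's exact test (adjusted p = 0.000372). The chromosome 6 pair summed to 421 CPM in replicate 1 against 468 CPM in replicate 2, and the chromosome 4 hairpins to 47.2 and 74.2 CPM. Of the chromosome 4 hairpins, only Mir200b was lower by CPM in replicate 1 (12.5 against 43.5 CPM). Mir429 (28.8 and 26.2 CPM) and Mir200a (5.87 and 4.60 CPM) were not, so the difference does not describe the cluster as a whole. The share without Mir200b was not tested.

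Grouped by the seed of the arm shown above, the hairpins with AAUACUG held most of the family's counts, which do not separate the arms. Mir200c alone gave 1512 of the 1667 counts of this group in replicate 1 and 2791 of 3230 in replicate 2. Mir200b, Mir200c and Mir429 summed to 445 CPM in replicate 1 against 512 CPM in replicate 2, while Mir200a and Mir141 with AACACUG summed to 23.5 and 30.3 CPM. The AAUACUG group took 94.99% of the family's counts in replicate 1 against 94.4% in replicate 2, and this difference did not pass the test (adjusted p = 0.52 by Fisher's exact test; odds ratio 1.12, 95% interval 0.86 to 1.47).

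**Figure D3:**
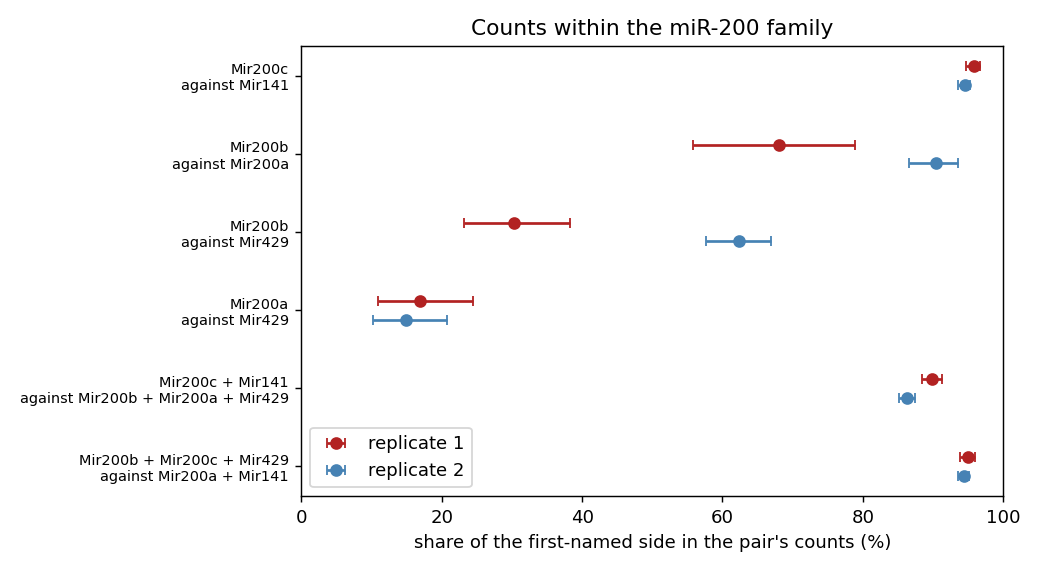
Share (%) of the side named first in the counts of each of 6 pairs within the miR-200 family, in replicate 1 (red) and replicate 2 (blue), with exact 95% intervals. The intervals of the libraries are apart for Mir200b against Mir200a, for Mir200b against Mir429 and for the chromosome 6 pair against the chromosome 4 hairpins, and overlap for Mir200c against Mir141, for Mir200a against Mir429 and for the seed groups.

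Of 13 other microRNA genes known from epithelia, 9 were detected, with 5 called higher and 3 called lower in replicate 1 and 1 not called, beside 37.9% and 34.1% of all detected genes. The calls of these 9 genes were the same with total counts and with DESeq2 size factors. The microRNAs of sensory and endocrine epithelia were among those higher in replicate 1. Mir182 had 134 CPM in replicate 1 against 36.2 CPM in replicate 2, Mir183 had 47.0 and 13.6 CPM, and Mir375 had 15.5 and 7.61 CPM. Mir96 of the same cluster as Mir182 had 2 counts in each library, below the limit of 3 counts.

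Of the 5 microRNAs known from multiciliated epithelia, 2 were detected and both were called higher in replicate 1. Mir449a had 90.4 CPM in replicate 1 against 24.1 CPM in replicate 2 (log2 ratio 1.76), and Mir34c had 73.6 and 21.1 CPM (log2 ratio 1.66). Mir34b had 9 counts (2.40 CPM) in replicate 1 against 19 counts (3.01 CPM) in replicate 2 and was not tested, Mir449c had 2 counts in replicate 1 and none in replicate 2, and Mir449b had none in either. The microRNAs of gut and kidney epithelia differed the other way or did not pass the test. Mir215 had 94.7 CPM in replicate 1 against 218 CPM in replicate 2 (log2 ratio -1.34), Mir192 had 17.9 and 25.1 CPM (log2 ratio -0.62), and Mir194-1 had 11.5 and 22.99 CPM (log2 ratio -1.13). Mir194-2 had 10.9 and 10.3 CPM and did not pass the test. The hairpins of Mir194-1 and Mir194-2 share a stretch of at least 20 bases, so their separate levels are uncertain.

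**Figure D4:**
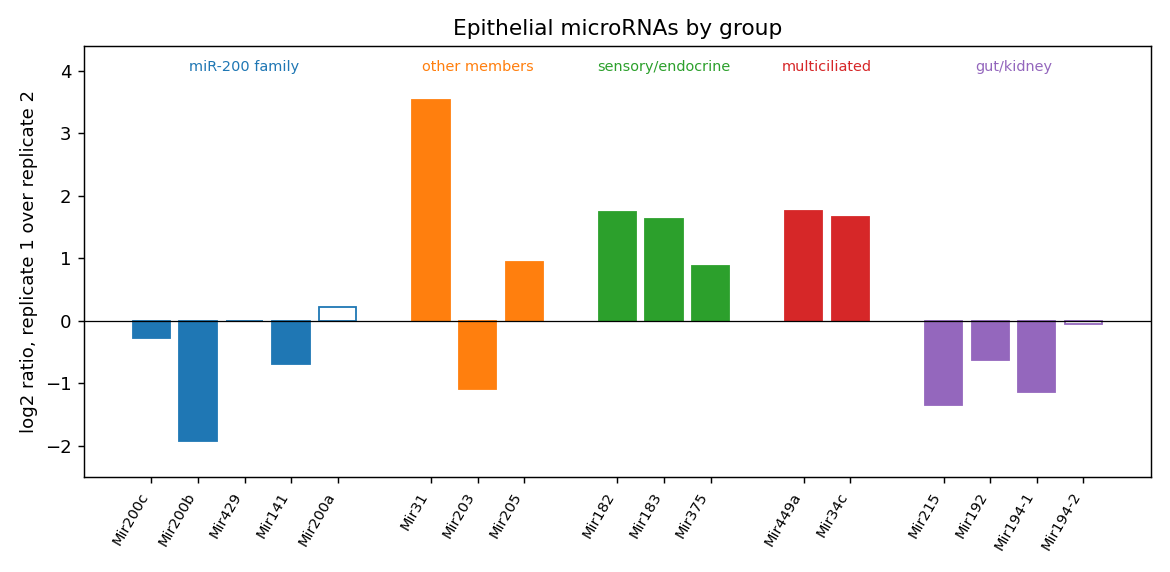
Log2 ratio of replicate 1 over replicate 2 for the 8 epithelial microRNA genes (first 2 groups) and 9 detected microRNA genes of other epithelia, with filled bars for genes called by the exact binomial test and open bars for the rest. Mir31, Mir205 and the sensory, endocrine and multiciliated genes lie above 0, and Mir203, Mir200b and the 4 gut and kidney genes lie below it, Mir194-2 at -0.05.

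Except for Mir1a-1, Mir133a-1 and Mir206, the detected markers of the cells of the tissue were also called between the libraries, as were 72.1% of all detected genes. Mir199b and Mir155 were called higher in replicate 1 with TMM scaling but not called with DESeq2 size factors. The cardiac muscle list of 7 genes summed to 8318 CPM in replicate 1 against 12455 CPM in replicate 2, with 1 of 6 detected genes called higher and 3 called lower in replicate 1, beside 37.9% and 34.1% of all detected genes. Besides Mir208a and Mir499 it held Mir208b (794 CPM in replicate 1 against 3444 CPM in replicate 2), Mir1a-2 (43.2 and 99.6 CPM), Mir1a-1 (3.47 and 3.01 CPM) and Mir133a-1 (2.67 and 4.28 CPM). The mesenchymal list of 5 genes summed to 3934 CPM in replicate 1 against 7945 CPM in replicate 2. It held Mir21a (2474 CPM in replicate 1 against 6146 CPM in replicate 2), Mir214 (1333 and 1678 CPM), Mir199b (108 and 83.4 CPM) and Mir199a-2 (19.2 and 37.0 CPM). The lists of endothelium and smooth muscle, led by Mir126a (88956 and 100563 CPM) and Mir143 (43579 and 51393 CPM), with Mir145a at 1211 and 1920 CPM, took 8.90% and 4.48% of the counts in replicate 1 against 10.1% and 5.33% in replicate 2. The list of leukocytes and thymus took 0.196% in replicate 1 against 0.219% in replicate 2, from Mir155 (1429.7 and 1191 CPM), Mir150 (392 and 672 CPM), Mir142 (117 and 249 CPM) and Mir223 (20.5 and 79.9 CPM). Mir122 of hepatocytes had 57.9 and 77.7 CPM, and the skeletal muscle gene Mir206 had 26.9 and 19.5 CPM. Mir133b of skeletal muscle had 6 and 10 counts. The levels of Mir1a-1, Mir1a-2, Mir133a-1, Mir133b, Mir199a-2, Mir199b, Mir126a and Mir142 are uncertain, because their hairpins hold 20 bases or more found on either strand of another. The part of tissue makeup in the differences of Mir31, Mir200b or Mir203 was not tested.

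The genes most like Mir200c and Mir31 in level over the 2 libraries were sought by the distance between log2(CPM + 1) values among the other detected genes. For Mir200c they were Mir25 (332 CPM in replicate 1 against 493 CPM in replicate 2), Mir30b (338 and 383 CPM) and Mirlet7c-1 (484 and 385 CPM), at distances of 0.32, 0.33 and 0.33 on the log2 scale. For Mir31 no gene was so near. Its closest genes were Mir24-1 (160 CPM in replicate 1 against 35.4 CPM in replicate 2) at a distance of 1.25, followed by Mir187 (188 and 65.0 CPM) and, at a distance of 1.51, Mir182 (134 and 36.2 CPM). The levels of Mir24-1 and Mirlet7c-1 are uncertain, since each hairpin holds 20 bases or more that recur in another.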

How the data were processed

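Small RNA of 2 mouse heart samples was sequenced, 1 library each. The samples share a donor identifier but have separate sample identifiers, and treating them as separate animals is an assumption. The authors deposited 1 table of raw, unnormalized counts per library, without a header, and the deposited text names mm10 and GENCODE M21. The aligner and counter were not given in the sources used here. The tables have 3 columns of counts. Their strands were inferred from the values, and the column for the strand of the gene was used. Entries that name no gene (4 in each table) stayed out of library sizes. Among them, in replicates 1 and 2, were multiply mapped reads (36.8% and 48.1%), reads with no place in the genome (16.0% and 11.5%) and those outside genes (4.78% and 3.43%). Reads of the CAST allele were counted against mm10, and the effect of that was not tested.

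Counts were scaled to CPM. Library sizes for ratios were scaled by TMM in edgeR 4.0.16, with total counts and DESeq2 1.42.0 size factors as alternatives, and ratios used a prior of 0.5 counts. Binomial, Poisson, Fisher and Clopper-Pearson calculations used scipy 1.17.1. With 1 group there was no contrast for a count model. The binomial calls were tested on simulated counts with known ratios, drawn with counting error alone and no spread between replicates. The simulation therefore says nothing of the calls where hearts or libraries vary. The genes and the lists of other epithelial genes and cell markers (36 entries in 8 lists, all matched by name) were chosen with earlier results of these data known. The rule for named genes took all 8 members, the 3 detected genes nearest to Mir200c and to Mir31, list genes with at least 10 counts in either library, and genes within 10 kb of a member. Mir96, Mir449b, Mir449c and Mir543 were named after their values were seen. Sequences are from RefSeq, where all 8 hairpins matched.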

Additional observations from a re-analysis of the deposited data

Results flagged for a closer look

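Reads on the strand opposite to Mir203 numbered 8 in replicate 1 and 8 in replicate 2, above the limit of 3 counts that a count of 0 allows. They stand out because few detected genes with no counted gene on the other strand had more than 3 such reads in both libraries. They equalled 2.70% of the Mir203 counts in replicate 1 and 0.835% in replicate 2, and these proportions were not tested against each other. Of 314 detected genes with no counted gene on the other strand, 3 (0.955%) had more than 3 such reads in both libraries, namely Mir122, Mir203 and Mir324, the last named after its values were seen. Mir141 and Mir200a had 1 such read in each library, and the other members had none. RefSeq (GRCm38.p6) places a microRNA on the strand opposite to Mir203, which was not among the genes counted. The counts are per hairpin and do not place the reads within it, so their source was not tested.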

How the results depend on the processing

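The number of the 8 genes called higher in replicate 1 was 2, and it was 1 (Mir31 without Mir205) with DESeq2 size factors, with no filter on low counts, with at least 30 counts in both libraries, which left 6 of the 8 genes in the test, and with a 2-fold demand. The number called lower was 4 under each alternative except the 2-fold demand, which left 2. Total counts moved all log2 ratios by 0.14 and DESeq2 size factors by -0.08 against TMM. The log2 ratio of Mir429, which was not called, was -0.0012 and turned positive, at 0.14 with total counts and 0.0056 with a prior of 2 counts. The mean share of the 8 genes in all counts, 0.0828%, was 0.114% on the reads of both strands, 0.233% without the 10 most abundant genes and 0.0332% over all reads of the tables, and each heart alone gave 0.0727% and 0.0929%. The 6 differences within the miR-200 family kept their direction and their side of the threshold on the reads of both strands. At 22 to 29 counts per library, the 95% intervals of the log2 ratios of Mir205 and Mir200a were the widest among the 8 genes. No paired analysis was possible because the series has 1 group.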
